A study of Mus musculus with 4 samples.

Results

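Lilrb4a and Lilr4b are neighbouring mouse genes for cell-surface receptors of the leukocyte immunoglobulin-like receptor family, also known as gp49B and gp49A. They were taken by their symbols, as 2 of the 34745 gene rows of the deposited RNA sequencing table. The pair was chosen because both were higher in one genotype and because their positions overlap, so their difference between genotypes is given as a description, without a test. The libraries came from naive CD4+ T cells of the spleen of C57BL/6 mice, polarized in culture for 3 days towards regulatory T cells. Wild-type cultures gave the libraries 13 and 15. Cultures with the genotype written as Setd2-CD4 cre gave the libraries 22 and 24. SETD2 is the enzyme that trimethylates lysine 36 of histone H3, and a Cre recombinase driven by CD4 regulatory sequence acts in the T cell lineage, CD8 T cells included. The labels give no age or sex of the animals. They do not say whether the wild-type animals carried Cre, nor whether the libraries of a genotype came from separate animals, so the spread behind each p-value is that between libraries and may be technical.

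Receptors of this family carry extracellular immunoglobulin domains. Lilrb4a is an inhibitory member: its cytoplasmic tail holds immunoreceptor tyrosine-based inhibitory motifs (ITIMs), short stretches around a tyrosine that, once phosphorylated, recruit the phosphatases SHP-1 (Ptpn6) and SHP-2 (Ptpn11) and dampen activating signals. Lilr4b has closely similar extracellular domains and a short tail without these motifs. Both are best known on mast cells and myeloid cells, and Lilrb4a is known also on natural killer cells and activated T cells. In cultured CD4+ T cells Lilrb4a stands beside other co-inhibitory receptors such as PD-1, TIM-3, LAG-3 and TIGIT.

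The genes lie in the same orientation on chromosome 10, plus strand (GRCm38). In the deposited table Lilr4b (ENSMUSG00000089672) ran from 51480632 to 51486316, and Lilrb4a (ENSMUSG00000062593) from 51480640 to 51496613, so that 5677 bases were common to both. In the GENCODE M21 annotation of the same build, the identifier that the table names Lilrb4a belongs to Gm49339. Its transcript Gm49339-203 joins a first exon inside that of Lilr4b (51480640 to 51480753) to the second exon of Lilrb4a (51491197 to 51491232) and continues through the remaining exons of Lilrb4a. A separate GENCODE gene named Lilrb4a (ENSMUSG00000112148) starts at 51490956. Both transcripts that end in the exons of Lilrb4a have 9 exons and the same 1005 coding bases, with 0 differences. The table row for Lilrb4a therefore covers the stretch of the joined transcript, and which transcripts its counts include is not given in the sources used here.

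**Figure D1:**
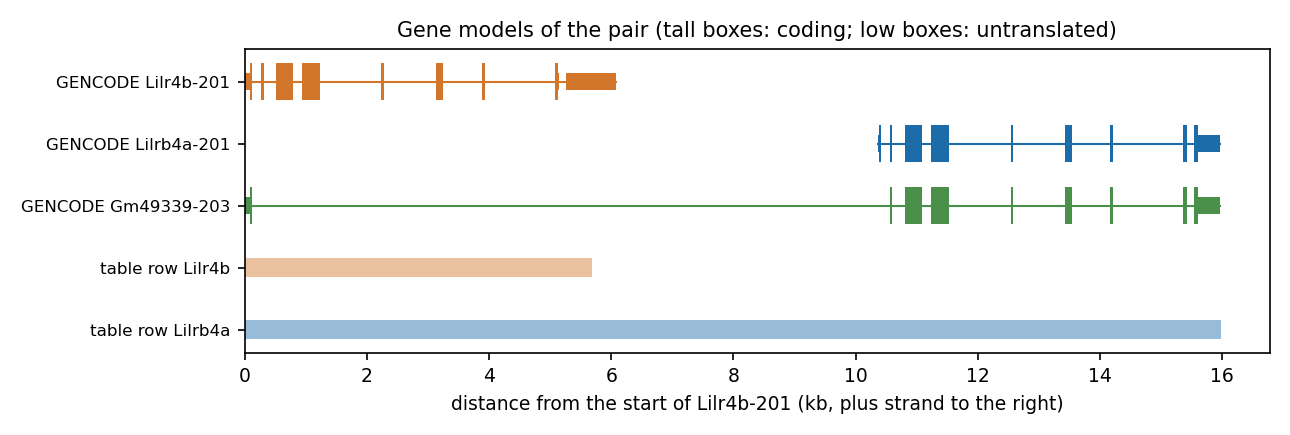
Gene models of the pair, with distance in kb from the start of transcript Lilr4b-201 on the horizontal axis; tall boxes are coding, low boxes untranslated, and the lowest 2 bars are the spans in the deposited table. The row of Lilrb4a starts at the first exon of Lilr4b, as Gm49339-203 does, and the row of Lilr4b lies inside it but for its first bases.

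The sequences below show how alike the genes are where they begin and where they part. The coding sequence was compared between transcripts Lilr4b-201 and Lilrb4a-201 of GENCODE M21: 871 of 907 aligned bases were identical (96.0%). The coding part of exon 1 (34 bases) was identical, and exon 3 was the least alike, with 268 of 285 bases identical (94.0%). Exons 1 and 2 together code for the start of the protein and are given 5′ to 3′, with the single base that differs from Lilr4b in capitals.
Lilr4b, exon 1 at 51480720 to 51480753 and exon 2 at 51480906 to 51480941: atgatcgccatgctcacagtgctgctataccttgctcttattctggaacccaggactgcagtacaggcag
Lilrb4a, exon 1 at 51491018 to 51491051 and exon 2 at 51491197 to 51491232: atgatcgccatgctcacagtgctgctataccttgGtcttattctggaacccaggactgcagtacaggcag

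The genes part in exon 8, in the part that codes for the cytoplasmic tail. Up to that exon both had 864 coding bases. Exon 8 then holds a run of C, in capitals, of 7 bases in Lilr4b and 5 bases in Lilrb4a, and from there the reading frames differ. The coding part of exon 8 ends after 45 bases in Lilr4b, which has no coding bases in exon 9. It runs through all 66 bases in Lilrb4a, which has 75 further coding bases in exon 9.
Lilr4b exon 8, coding part, 51485713 to 51485757: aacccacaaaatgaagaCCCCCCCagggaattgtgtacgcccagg
Lilrb4a exon 8, coding part, 51495994 to 51496059: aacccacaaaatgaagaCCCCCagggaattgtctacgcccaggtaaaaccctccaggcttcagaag

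The ITIM pattern was searched in frame in the coding sequences: isoleucine, valine, leucine or serine, any residue, tyrosine, any 2 residues, then isoleucine, valine or leucine. Lilrb4a had 3 matches. Of these, 1 lay across exons 1 and 2 at the start of the protein, where Lilr4b had its only match, 1 lay in exon 8 and 1 in exon 9. The matches in exons 8 and 9 are the tail motifs, shown with the tyrosine codon in capitals. Such matches are common: of 21581 protein-coding genes, 50.9% had 0 and 24.3% had 2 or more in their longest coding sequence.
Lilrb4a exon 8, 51496021 to 51496038: attgtcTACgcccaggta
Lilrb4a exon 9, 51496194 to 51496211: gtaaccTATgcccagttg

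Because the transcripts are so alike, short reads can fit both. Of all windows of 50 bases in Lilrb4a-201, 27.8% also occurred in a transcript of Lilr4b, and of windows of 100 bases 14.3% did. The remaining windows differ by at least a base, so a read from them can be assigned. Of the windows of Lilrb4a-201, 100% also occurred in Gm49339. The summed counts of the pair do not depend on how reads were divided between the 2 rows and are given beside each member.

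Library totals were 14599957 to 16030869 counts, where 3 counts correspond to 0.184 to 0.201 CPM (counts scaled by library size). In what follows, levels before the word against are those of wild type 13 and 15, and levels after it those of knockout-labelled 22 and 24. Setd2 itself had 137 and 146 CPM against 137 and 113 CPM in the Setd2-CD4 cre libraries (adjusted p = 0.436, edgeR). Whole-gene counts can miss the loss of a few exons, so the genotype is called knockout-labelled here. Foxp3, the transcription factor that defines regulatory T cells, had 242 and 247 CPM against 31.9 and 75.8 CPM (adjusted p = 0.0233). T cell markers were abundant in every library, with summed levels of 5150 to 5477 CPM. With edgeR 0 of 12 passed the threshold (median log2 fold change 0.03), beside 5.53% higher and 4.59% lower of all genes tested. Cd4 was at 986 to 1257 CPM and Cd3e at 259 to 291 CPM. In RNA from whole cultures, fewer cells with a transcript and less of it per cell cannot be told apart.

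Lilrb4a, the inhibitory receptor, gave 386 and 333 counts in wild type 13 and 15 and 982 and 1136 counts in knockout-labelled 22 and 24. These are 23.7 and 22.3 CPM against 65.7 and 72.5 CPM. Both knockout-labelled libraries lay above both wild-type libraries, and the lowest of them was 2.78 times the highest wild-type library. The group means were 23.0 ± 0.932 and 69.1 ± 4.80 CPM (SD, n = 2 each), with a fitted log2 fold change of 1.59 (SE 0.13).

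Lilr4b, the member without tail motifs, gave 393 and 320 counts in wild type and 1233 and 1235 counts in knockout-labelled 22 and 24. These are 24.1 and 21.5 CPM against 82.5 and 78.8 CPM. Again the groups did not overlap, and the lowest knockout-labelled library was 3.27 times the highest wild-type library. The means were 22.8 ± 1.85 and 80.7 ± 2.60 CPM (SD, n = 2 each), with a fitted log2 fold change of 1.82 (SE 0.13).

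Taken as 1 row, the pair gave 47.7 and 43.8 CPM against 148 and 151 CPM. The means were 45.8 ± 2.78 and 150 ± 2.20 CPM (SD, n = 2 each), a 3.27-fold difference (log2 fold change 1.71, SE 0.13). Within a genotype the summed libraries differed by 1.09 times in wild type and 1.02 times in knockout-labelled. For orientation, 10.1% of the 13279 genes tested were called at an adjusted p below 0.05, with 5.53% higher, and in 31.1% both knockout-labelled libraries lay above both wild-type libraries. Since the pair was chosen on this contrast, nothing is read from its place among them.

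**Figure D2:**
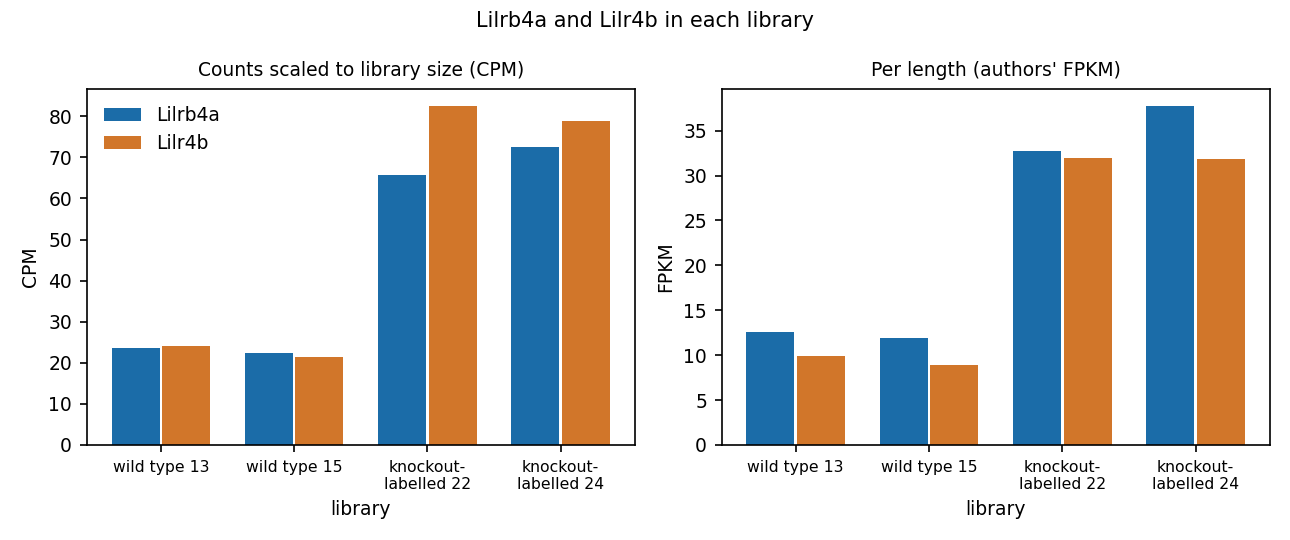
Level of Lilrb4a (blue) and Lilr4b (orange) in each of the 4 libraries, as CPM on the left and as the authors' FPKM on the right; each bar is 1 library. The bars of wild type stand at 21.5 to 24.1 CPM and those of knockout-labelled at 65.7 to 82.5 CPM.

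Levels of the 2 genes can be set against each other only per length, for which the authors' FPKM (fragments scaled to gene length and library size) were used. These rest on a length of 1922 bases for Lilrb4a and 2475 bases for Lilr4b, as implied by count and FPKM. In wild type Lilrb4a stood at 12.5 and 11.9 FPKM and Lilr4b at 9.91 and 8.86 FPKM. In knockout-labelled 22 and 24 Lilrb4a stood at 32.8 and 37.8 FPKM and Lilr4b at 31.9 and 31.9 FPKM. Lilrb4a was thus the higher of the pair per length in each library, by a ratio of 1.26 and 1.34 in wild type and of 1.03 and 1.18 in knockout-labelled. The mean FPKM of Lilrb4a lay above that of 70.2% of the genes tested in wild type and of 90.3% in knockout-labelled, and that of Lilr4b above 63.6% and 89.0%.

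How the pair is divided was not used in choosing it. Lilrb4a made up 49.6% (46.0 to 53.1) of the pair's counts in wild type 13 and 51.0% (47.1 to 54.9) in wild type 15. It made up 44.3% (42.3 to 46.4) in knockout-labelled 22 and 47.9% (45.9 to 49.9) in knockout-labelled 24 (95% exact binomial intervals, which cover counting error only). The share was lower in both knockout-labelled libraries, but the interval of knockout-labelled 24 overlapped both wild-type intervals and that of knockout-labelled 22 overlapped that of wild type 13. The means were 50.3 ± 1.02% and 46.1 ± 2.53% (SD, n = 2 each), a difference of -4.15 percentage points and -4.13 points per length. An exact permutation test, two-sided, gave p = 0.333. That is the smallest p that 2 against 2 libraries allow, so this test could not have passed the threshold and says nothing about whether the division differed. Any such share also rests on how reads that fit both genes were assigned.

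**Figure D3:**
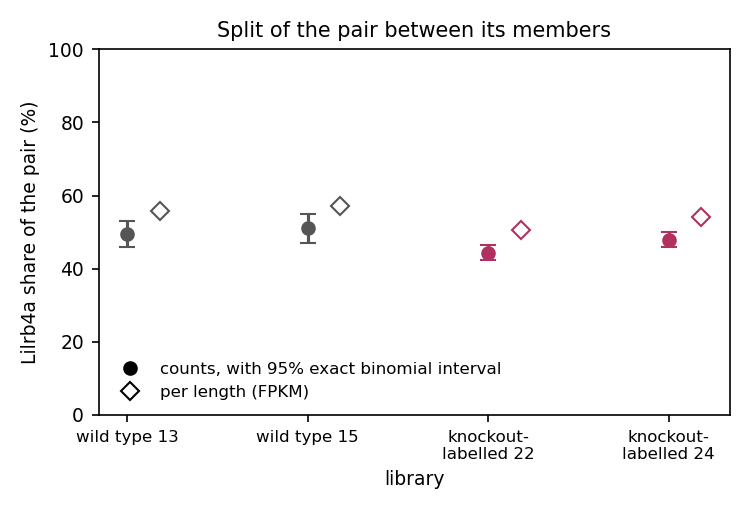
Share of Lilrb4a in the pair, in percent, for each library; filled circles are shares of counts with 95% exact binomial intervals and open diamonds shares of FPKM. Shares of counts lie between 44.3% and 51.0%, with knockout-labelled 22 the lowest.

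The table's gene ontology annotation held 17 terms for Lilrb4a and 10 for Lilr4b. All 10 terms of Lilr4b were among those of Lilrb4a and concern binding, membranes and extracellular vesicles. The 7 terms that only Lilrb4a carried include plasma membrane, immune response and adaptive immune response.

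Other genes of the neighbourhood were silent or nearly so. Within 500 kb on either side the table held 5 further genes. Fam162b, Gprc6a, Rfx6 and 4933411G06Rik, at 88.8 to 260 kb beyond Lilrb4a, had 0 counts in all 4 libraries, which allows up to 0.201 CPM. Sim1, a transcription factor gene at -491 kb from Lilr4b, had 0 and 2 counts in wild type and 0 counts in both knockout-labelled libraries. Counts in this window were therefore seen almost entirely in the receptor pair.

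The 250 bases before the RefSeq start of Lilr4b (GRCm38.p6, chr10:51480362-51480611, plus strand) are shown because this stretch lies upstream of the first exon that Lilr4b and the joined transcript have in common. The RefSeq promoter table matched 1 of the 2 members, Lilr4b. Capitals mark matches to the ETS core GGAA and to the forkhead motif TGTTTAC on either strand.
Lilr4b promoter: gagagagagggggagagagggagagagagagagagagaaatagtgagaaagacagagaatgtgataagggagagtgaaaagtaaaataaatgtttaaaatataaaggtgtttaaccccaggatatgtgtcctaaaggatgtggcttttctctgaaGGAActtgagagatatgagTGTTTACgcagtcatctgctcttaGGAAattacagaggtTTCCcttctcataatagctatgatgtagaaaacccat
The window held 3 matches to GGAA and 1 to TGTTTAC. It held 1 match to the E-box CANNTG and 1 to the TATA motif TATAAA. It held 0 matches to the AP-1 motif TGANTCA and 0 to the PU.1 motif GAGGAA, which contains GGAA. Among 27025 promoters of this length, 93.4% held GGAA, 66.2% CANNTG, 12.9% TATAAA, 6.87% TGANTCA, 23.1% GAGGAA and 3.12% TGTTTAC. A match is a description of the letters and not a binding site.

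The relatives of the pair on the family list were low in every library, and none of them rose. Pirb, the paired inhibitory receptor of the same family, gave 45 and 46 counts against 14 and 16 in knockout-labelled, which is 2.92 ± 0.232 against 0.979 ± 0.0597 CPM (SD, n = 2 each). It was called lower (log2 fold change -1.57, adjusted p = 0.0451, edgeR), as were 4.59% of all genes tested. That call did not hold with DESeq2 (adjusted p = 0.0581) or when library 13 (0.191), 15 (0.303) or 22 (0.074) was left out. Lair1, the inhibitory collagen receptor, gave 53 and 36 counts in wild type and 17 and 13 in knockout-labelled (log2 fold change -1.52, adjusted p = 0.0585). Pira2, an activating relative, gave 10 and 4 counts in wild type and 0 and 1 in knockout-labelled, Lilra6 gave 2, 4, 0 and 0, and Lilra5 gave 0 in every library. Pira and Pirb genes are near-identical copies, so reads may be shared among them. Of the 13 genes on this list, 5 were matched to a row and 2 were tested, with a median log2 fold change of -1.55 against -0.00133 over all genes tested.

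Ligands reported for these receptors include the integrin made of the alpha-v and beta-3 chains, which binds gp49B, and for human LILRB4 or its mouse counterpart apolipoprotein E, fibronectin and ALCAM. Of the 11 ligand genes tested, 2 rose and 1 fell, with a median log2 fold change of 0.26. Of all genes tested, 5.53% were called higher and 4.59% lower. Itgb3, the beta-3 chain, went from 49.8 and 46.0 CPM to 150 and 118 CPM, a 2.80-fold rise (log2 fold change 1.48, SE 0.16, adjusted p = 0.0113). Alcam rose from 14.9 and 13.9 CPM to 40.6 and 33.5 CPM (log2 fold change 1.36, adjusted p = 0.0135, and 0.06 without wild type 15). Itgav, the alpha-v chain, was uneven: it had 38.7 and 42.5 CPM in wild type but 215 CPM in library 22 and 56.0 CPM in library 24 (adjusted p = 0.0874). Angptl2, a secreted ligand reported for PirB, fell from 17.6 to 8.16 CPM (adjusted p = 0.0444), a call lost when library 13 (0.0866) or library 15 (0.172) was left out. Fn1, at 3.47 and 1.38 CPM, and Apoe, at 6.07 and 6.55 CPM, did not pass (adjusted p = 0.0646 and 0.843). H2-D1 and B2m, class I histocompatibility genes whose products bind PirB, did not pass either, at log2 fold changes of 0.42 and 0.25.

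The enzymes that ITIMs recruit were present in every library. Ptpn6 stood at 262 and 297 CPM against 236 and 221 CPM (log2 fold change -0.29, adjusted p = 0.161). Ptpn11 stood at 137 and 149 CPM against 97.5 and 106 CPM (log2 fold change -0.50, adjusted p = 0.0559), and the inositol phosphatase gene Inpp5d at 161 and 162 CPM against 160 and 135 CPM (adjusted p = 0.527). Among 13 phosphatases and kinases of this signalling 1 rose and none fell, with a median log2 fold change of -0.0081. Over all genes tested, 5.53% were called higher and 4.59% lower. The member that rose was Fes, a cytoplasmic tyrosine kinase, from 43.0 ± 0.122 to 90.0 ± 13.1 CPM (SD, n = 2 each), with an adjusted p of 0.0165 that became 0.0672 without library 13 and 0.092 without library 15. Lyn, a Src-family kinase that phosphorylates such motifs, did not pass at 2.39 and 3.69 against 8.83 and 6.06 CPM (adjusted p = 0.0547).

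Activating relatives of the family signal through adaptors that carry activation motifs. Of 11 listed signalling adaptors, antigen receptor chains and Syk-family kinases, 0 passed the threshold in either direction with edgeR. The list median log2 fold change was 0.29, and over all genes tested 5.53% were called higher and 4.59% lower. Tyrobp (DAP12) was low, at 2.45 and 2.48 CPM against 4.02 and 3.19 CPM (adjusted p = 0.269), as was Fcer1g, the common Fc receptor chain, at 2.51 and 2.21 CPM against 2.88 and 3.83 CPM (0.325). The T cell kinase gene Zap70 did not pass at a log2 fold change of 0.39 (adjusted p = 0.0796), nor did Cd79a and Cd79b, chains of the B cell receptor, at 1.17 and 0.79 (0.0629 and 0.0603).

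Other receptors with ITIMs were mixed. Of 15 tested, 2 rose and none fell, with a median log2 fold change of 0.51, beside 5.53% higher and 4.59% lower of all genes tested. The risers were Tigit and Pdcd1, which are also on the co-inhibitory list described next. Pecam1 (CD31), with an ITIM-bearing tail, was at 43.7 and 41.9 CPM against 65.3 and 56.6 CPM (adjusted p = 0.0592). Siglece, a sialic acid receptor, was barely detected, with 7 and 2 counts against 23 and 16 (adjusted p = 0.0796).

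Of 15 co-inhibitory receptors and genes that regulate them, 7 rose and none fell, with a median log2 fold change of 0.63. Of all genes tested, 5.53% were called higher and 4.59% lower. This list was chosen with earlier results of these data known. Tigit rose from 24.8 and 25.0 CPM to 86.7 and 76.7 CPM (log2 fold change 1.71, SE 0.13, adjusted p = 0.00947). Procr, the endothelial protein C receptor gene, rose from 9.36 ± 0.625 to 33.5 ± 5.97 CPM, and Havcr2 (TIM-3) from 4.80 ± 1.28 to 15.0 ± 0.654 CPM (SD, n = 2 each), with adjusted p-values of 0.0113 and 0.0184. Lag3, Prdm1 (the transcription factor Blimp-1), Pdcd1 (PD-1) and Nt5e (CD73) rose too, at adjusted p = 0.0189, 0.0204, 0.0262 and 0.0383 and log2 fold changes of 0.79, 1.09, 0.73 and 0.54. These last 4 lost their call when library 13 was left out (adjusted p = 0.0705 to 0.339) and when library 15 was (0.126 to 0.224), where Havcr2 lost its call too (0.0708). Among those that did not pass were Maf, Ctla4, Cd244a and Entpd1, whose log2 fold changes were 0.63, 0.41, 1.20 and -0.26 (adjusted p = 0.0564, 0.0702, 0.273 and 0.365).

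The levels of the pair per length are set beside those of co-inhibitory receptors as a description, since the rise that moved the pair in this order is what it was chosen for. In wild type the order ran from Ctla4 (240 FPKM) and Lag3 (74.2 FPKM) over Tigit (26.4), Btla (21.1 and 20.9 in its libraries) and Pdcd1 (18.7) to Lilrb4a (12.2), Lilr4b (9.38) and Havcr2 (0.985 FPKM). In knockout-labelled it ran from Ctla4 (305 FPKM), Lag3 (124) and Tigit (83.0) over Lilrb4a (35.3), Lilr4b (31.9) and Pdcd1 (29.8) to Btla (18.3) and Havcr2 (2.96 FPKM). Of these neighbours, Lilr4b and Pdcd1 could not be told apart in knockout-labelled, where Pdcd1 was at 27.8 and 31.9 FPKM. The order of Lilrb4a and Lilr4b rests on the lengths behind their FPKM. In wild type no library of Lilrb4a or Lilr4b reached the level of Pdcd1, whose libraries were at 19.3 and 18.2 FPKM.

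**Figure D4:**
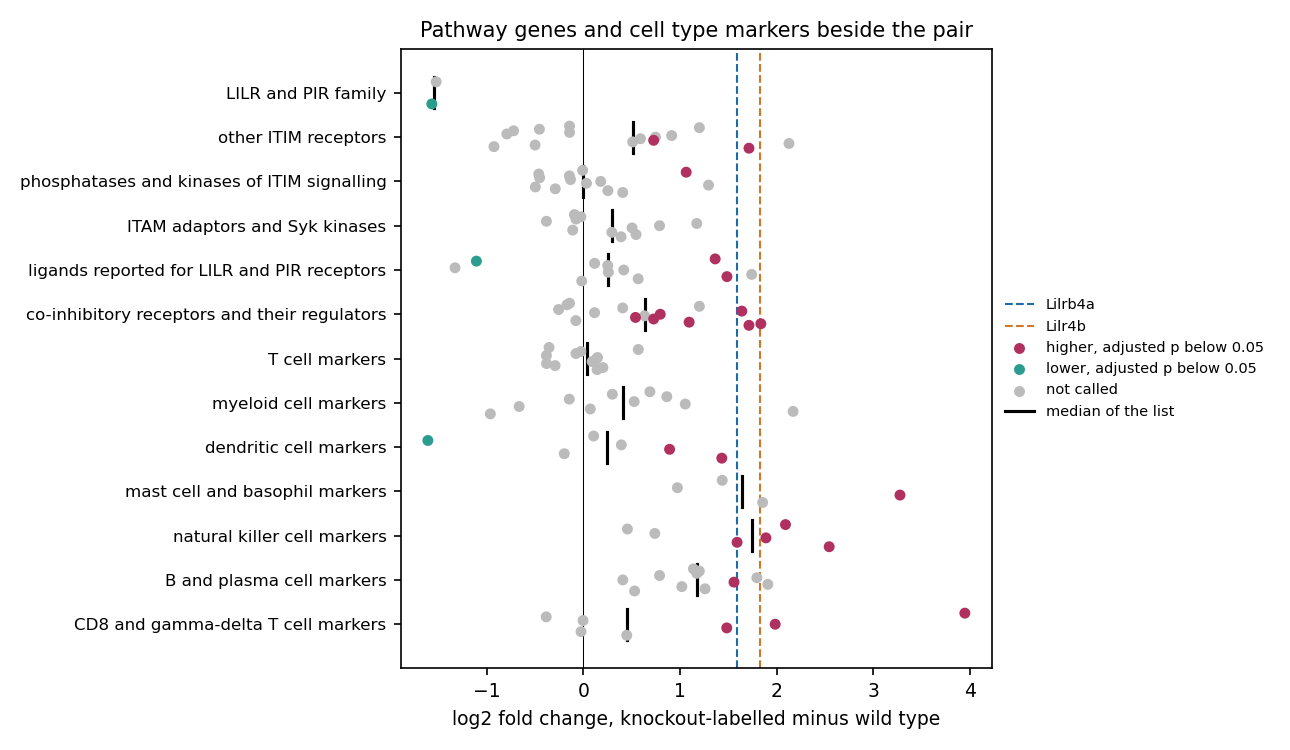
Log2 fold change, knockout-labelled minus wild type, of each tested gene in 13 lists of pathway genes and cell type markers; red points were called higher, green points lower, grey points not called, black bars are list medians and dashed lines mark the pair. Tigit, Procr and Havcr2 are the co-inhibitory genes beside the dashed lines, and Pirb and Lair1 are the points left of 0 in the top row.

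Cell types that are known for these receptors could be present in small numbers, so their markers were read beside the pair. The 15 myeloid markers summed to 38.2 and 43.9 CPM against 39.8 and 54.3 CPM in knockout-labelled. Over all genes tested 5.53% were called higher and 4.59% lower, and of the 10 myeloid markers tested 0 passed with edgeR (median log2 fold change 0.41). Lyz2 (lysozyme), the most abundant of them in wild type, had a mean of 11.3 CPM there and 7.12 CPM in the other genotype (adjusted p = 0.232). Cd68 had 9.44 and 8.45 CPM against 9.57 and 12.4 CPM, and Cybb means of 6.45 and 5.83 CPM. Csf1r, the receptor that defines macrophages, gave 18 and 8 counts against 29 and 17, and Adgre1 (F4/80) gave 5 and 15 against 5 and 1. The members with the lowest adjusted p were S100a9, a neutrophil and monocyte protein gene, with 17 and 4 counts against 29 and 64 (log2 fold change 2.17, adjusted p = 0.0801), and the monocyte marker Ly6c2, with 60 and 65 counts against 84 and 173 (1.05, adjusted p = 0.102). Per length the list summed to 17.4 and 21.3 FPKM against 16.3 and 26.1 FPKM. The part of myeloid cells in the levels of the pair was not tested.

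Mast cell and basophil markers summed to 106 and 120 CPM against 281 and 171 CPM, nearly all of it Kit, a stem cell factor receptor, at 105, 118, 275 and 162 CPM (adjusted p = 0.0538). Several defining markers were at or near 0, a choice of markers made after their values were seen: Tpsab1 had 0 counts in all libraries, Fcer1a 0, 0, 1 and 1, Tpsb2 0, 0, 0 and 3, Ms4a2 0, 0, 0 and 10, and Cpa3 6, 1, 1 and 11. Mcpt1, a mast cell protease, rose from 2 and 8 counts to 41 and 57 counts (adjusted p = 0.0276; 0.076 without wild type 13), the only call among 4 tested markers (median log2 fold change 1.64). The basophil protease gene Mcpt8 had 2 and 4 counts against 10 and 12 (log2 fold change 1.85, adjusted p = 0.115), and the mast cell protease gene Mcpt4 had 0 and 0 against 7 and 5. Over all genes tested, 5.53% were called higher. The part of mast cells and basophils in the levels of the pair was not tested.

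Some natural killer cell markers were higher in knockout-labelled, on a list chosen with earlier results of these data known. The 10 markers summed to 72.0 and 69.3 CPM against 256 and 303 CPM. Of 6 tested genes 4 rose: Gzma (granzyme A), Klrd1 (CD94), Klri2 and Klre1 (median log2 fold change 1.74). Of all genes tested, 5.53% were called higher. Gzma and Klrd1, which activated T cells can also express, made up most of the sum, with means of 31.8 and 29.3 CPM that rose to 135 and 109 CPM (adjusted p = 0.0103 and 0.00947). Ncr1, a defining marker, had 0 counts in both wild-type libraries and 8 and 3 counts in knockout-labelled, and Klrb1c 19 and 10 against 33 and 14. The call of Klre1 was lost when library 13, 15 or 22 was left out (adjusted p = 0.204, 0.0914 and 0.0716). The part of such cells in the levels of the pair was not tested.

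Markers of further lymphocytes and of dendritic cells were read in the same way, beside 5.53% of all genes tested called higher and 4.59% lower. Of 7 tested CD8 and gamma-delta T cell markers 3 rose and none fell (Cd163l1, Tcrg-C1 and Tcrg-C2, list median log2 fold change 0.45). Cd163l1 went from 5 and 8 counts in wild type to 87 and 114 counts (log2 fold change 3.95, adjusted p = 0.0106). Its call held with DESeq2 and in edgeR with RLE factors or library totals as scaling. The other scalings, filters and tools were not checked for Cd163l1. Its log2 fold change was 3.58 to 4.38 with each library left out. The list summed to 145 and 203 CPM against 224 and 141 CPM, and per length to 58.3 and 75.3 FPKM against 89.4 and 87.4 FPKM, so the groups overlapped on the first scale and not on the second. The gamma-chain segments Tcrg-C1 and Tcrg-C2, similar in sequence and so open to shared reads, lost their call when library 15 was left out (adjusted p = 0.0943 and 0.137). Of 11 tested B and plasma cell markers Igkc rose and none fell (median 1.17), with a sum of 239 and 242 CPM against 320 and 362 CPM. The call of Igkc was lost without library 13 (adjusted p = 0.0513) or 15 (0.144). Of 6 tested dendritic cell markers Zbtb46 and H2-Ab1 rose and Flt3 fell (median 0.25). The calls of Zbtb46 and H2-Ab1 were lost when library 15 was left out (adjusted p = 0.0929 and 0.279), and that of H2-Ab1 also without library 13 (0.0757). That of Flt3 was lost whichever library was left out (adjusted p = 0.0507 to 0.275). The dendritic list summed to 107 and 86.6 CPM against 130 and 127 CPM. Of its 10 markers, 3 had 0 counts in every library (Xcr1, Siglech and Cd209a), named here after their values were seen. The part of these cells in the levels of the pair was not tested.

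Genes with the most similar pattern over the 4 libraries were looked for. The search covered 9735 genes with a mean of 5 or more CPM, without the pair and genes with predicted names (such as Gm or Rik). The measure was the Euclidean distance between their log2 (CPM + 0.5), as deviations from the wild-type mean, and those of the summed pair. The members themselves lay at 0.21 (Lilrb4a) and 0.16 (Lilr4b). The 6 nearest genes were Ddah2 (0.10), Fads2 (0.11), Tmem176a (0.14), Tigit (0.17), Ttc39c (0.21) and Fcho2 (0.27). Ddah2 encodes a relative of an enzyme that degrades methylated arginine, Fads2 the delta-6 fatty acid desaturase, Tmem176a a membrane channel protein and Tigit an inhibitory receptor. Ddah2 stood at 12.7 and 11.5 CPM against 38.6 and 43.2 CPM, and Fads2 at 8.40 and 7.71 against 25.2 and 26.8 CPM. With 4 libraries in 2 groups, such likeness mostly states a similar size of difference and even replicates.

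**Figure D5:**
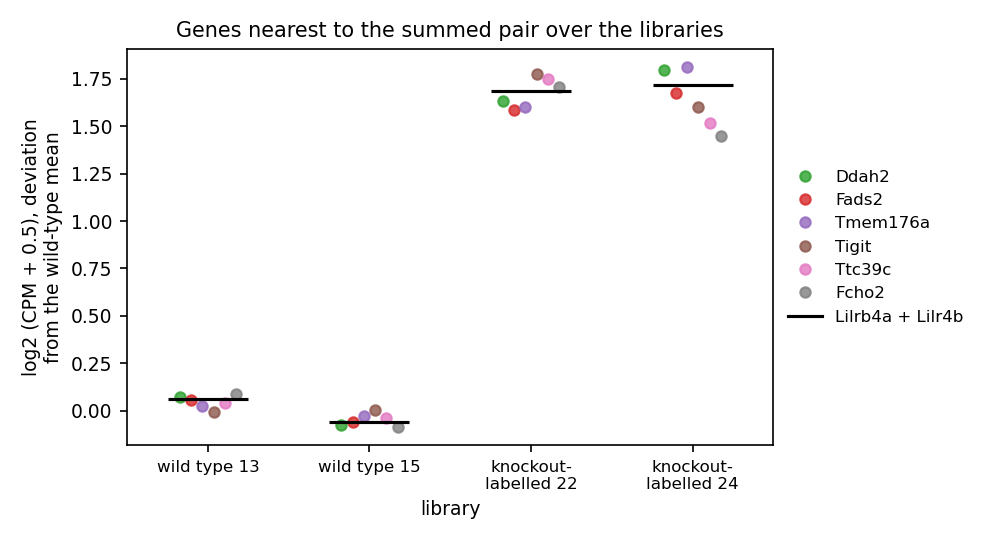
Deviation of log2 (CPM + 0.5) from the wild-type mean in each library, for the 6 genes nearest to the summed pair (points) and for the pair itself (black bars). In knockout-labelled 22 the points lie between 1.59 and 1.78, around the pair at 1.69, and in knockout-labelled 24 between 1.45 and 1.81, around the pair at 1.72.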

How the data were processed

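The 4 RNA sequencing libraries were grouped by the genotype in their labels. The submitters' processing notes name Bowtie2, RSEM and the genome builds GRCm38.p6 and mm10. Which versions, annotation release and strand setting applied is not given in the sources used here. The authors deposited whole-number counts and FPKM per gene in 1 table, whose FPKM rest on 1 fixed length per gene. The test on counts was that of edgeR 4.0.16 (R 4.3.3): filterByExpr (minimum count 10, minimum total 15), scaling by trimmed mean of M values, glmQLFit and glmQLFTest, two-sided, with Benjamini-Hochberg adjustment over 13279 genes and a threshold of 0.05. All adjusted p-values come from this test unless another is named. The standard error was taken as the log2 fold change over the square root of F. The fit was tested on simulated counts. The members, gene lists and rules were chosen with earlier results of these data known. Of 154 list genes, 143 matched a symbol of the table and 3 an identifier in the GENCODE M21 names. The rule for named genes takes both members, 7 fixed genes, genes within 500 kb, list members past the threshold with up to 4 more by adjusted p and 3 by level, and the 6 nearest patterns; some that it takes are covered by counts only. Apoe, Btla, Tyrobp, Fcer1g, the rarely counted relatives and the defining markers near 0 were added after their values were seen. Gene models and coding sequences came from GENCODE M21 (GRCm38) and were aligned with Biopython 1.88; the promoter is RefSeq's. Alternatives were other scalings, filters and tools (DESeq2 1.42.0, limma 3.58.1) and leaving out each library. Figures were drawn with matplotlib 3.10.9.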

Additional observations from a re-analysis of the deposited data

How the results depend on the processing

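The log2 fold change of Lilrb4a (1.59) was 1.46 to 1.59 over the other scalings, filters and tools and 1.51 to 1.67 with each library left out. That of Lilr4b (1.82) was 1.67 to 1.83 and 1.74 to 1.90. That of the summed pair (1.71) was 1.65 to 1.72 and 1.64 to 1.77, but the pair was not fitted with limma, so these ranges cover fewer settings. The lowest values of Lilrb4a and Lilr4b, 1.46 and 1.67, came from limma on log2(FPKM + 1). On log2(FPKM + 0.1) limma gave 1.52 and 1.76, and edgeR with library totals as scaling gave 1.53 and 1.77. The share of Lilrb4a differed by -5.94 to -2.36 points with each library left out. Genes called higher numbered 734, or 120 to 2122 with each library left out, 1261 without a filter, 445 with limma on log2(FPKM + 1) and 457 on log2(FPKM + 0.1). Genes called lower numbered 610, or 70 to 2002 with each library left out and 1088 without a filter. Distinct list members called higher and lower numbered 21 and 3 of 114, or 8 to 39 and 0 to 7 with each library left out. With all libraries, 5.53% of all genes tested were called higher and 4.59% lower. Where only 1 library of a genotype remained, its spread was taken from the remaining group. No paired analysis was possible because the groups share no replicate number.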
